A study of Bos taurus with 6 samples.

Results

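The genes described here are 10 genes of linker histones and core histone variants, chosen by name from the 17325 genes of the bovine metaphase II oocyte libraries. They comprise the linker histones H1FOO, H1F0 and H1FX, the H2A variants H2AFX, H2AFZ, H2AFV and H2AFY, the H3.3 genes H3F3A and H3F3B, and the centromeric H3 variant CENPA, and each was found in the files by its older symbol. The comparison was between 3 libraries labelled siMTFP1, from oocytes in which MTFP1 was to be knocked down, and 3 libraries labelled NC, the negative control, all from Bos taurus oocytes that reached metaphase II, the stage of the unfertilized egg, during in vitro maturation. The MTFP1 protein sits in the inner membrane of mitochondria. The number of oocytes per library, the way the siRNA was delivered and the age of the animals are not given in the sources used here. No label states that replicates are independent cultures or animals, and a p-value therefore reflects variation among these libraries alone, technical variation included.

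Nucleosomes wrap DNA around histone octamers, and linker histones bind where the DNA enters and leaves them. Most histone genes are transcribed only while DNA is replicated, whereas many variant histones are also made outside replication. Variants replace the canonical histones at chosen places. The egg relies on such stores, because after fertilization it must package the sperm genome before its own transcription begins. In mice the oocyte linker histone is the main H1 of the egg and is loaded onto sperm chromatin after fertilization.

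Levels are given as FPKM, a fragment count scaled to transcript length and to the library's mapped fragments, so that genes can be compared per length. A library's FPKM summed to between 784365.7 and 892790.4, and these values keep no record of sequencing depth. Markers of the labelled cell type were present, since all 12 oocyte markers were above 0 in every library, with BMP15 at 2752 ± 323 FPKM in the libraries labelled siMTFP1 and 2739 ± 403 FPKM in those labelled NC (SD, n = 3 each). Levels of 2 of the 12 had an unadjusted limma p under 0.05. ZP2 had a log2 difference of -0.54 without overlap, as in 5.05% of all tested genes in this direction. DAZL had one of 0.91 with overlap. Neither ZP2 nor DAZL passed after adjustment (limma adjusted p = 0.447 and 0.698). Of 24 cumulus and granulosa markers, 20 to 22 were above 0 per library, and the follicle stimulating hormone receptor FSHR was at 0 in all but NC 3, at 0.02 FPKM. The summed FPKM of these 24 was 213 to 1185 in the libraries labelled siMTFP1, the highest in siMTFP1 2, and 178 to 384 in those labelled NC. Of the 15 tested, 12 had a higher and 3 a lower mean, with a median log2 difference of 0.23. Over all tested genes, 54.2% had a higher mean. SPARC, VIM and INHA, all higher, had an unadjusted limma p under 0.05, while 0 passed after adjustment. Such a p was found in 6.53% of all tested genes in either direction. Each of SPARC, VIM and INHA was highest in siMTFP1 2, and the groups overlapped. TNFAIP6, with the next smallest p, had a lower mean (log2 difference -1.36), also with overlap. MTFP1 itself was at 0.43, 0.58 and 1.15 FPKM in the libraries labelled siMTFP1, against 0.53, 0.55 and 0.05 FPKM in those labelled NC (exact two-sided permutation test of log2 values, p = 0.4, where 0.1 is the smallest possible). The measured level of MTFP1 was thus not lower in the libraries labelled siMTFP1. Its mean over the 6 libraries was 0.55 FPKM, below the minimum of 1 FPKM used for the tests below. At this level the values cannot show whether the knockdown worked, and every direction below is that of the labels.

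The 10 genes ran from one of the most abundant transcripts of the egg to levels near 1 FPKM, and their order hardly varied. H1FOO stood first, followed by H3F3B, H3F3A, H2AFX, H2AFV, CENPA, H2AFZ, H1F0, H1FX and H2AFY, by mean FPKM over the 6 libraries. This order held within each of the 6 libraries for every neighbouring pair. The ranges over libraries were separate for all neighbours except CENPA with H2AFZ (lowest CENPA 23.5, highest H2AFZ 33.3 FPKM) and H1FX with H2AFY (lowest H1FX 1.15, highest H2AFY 1.83 FPKM). Together the 10 genes took 1.13% to 1.31% of a library's FPKM in the libraries labelled siMTFP1 and 1.12% to 1.196% in those labelled NC, and H1FOO made up 67.6% of their summed mean.

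**Figure D1:**
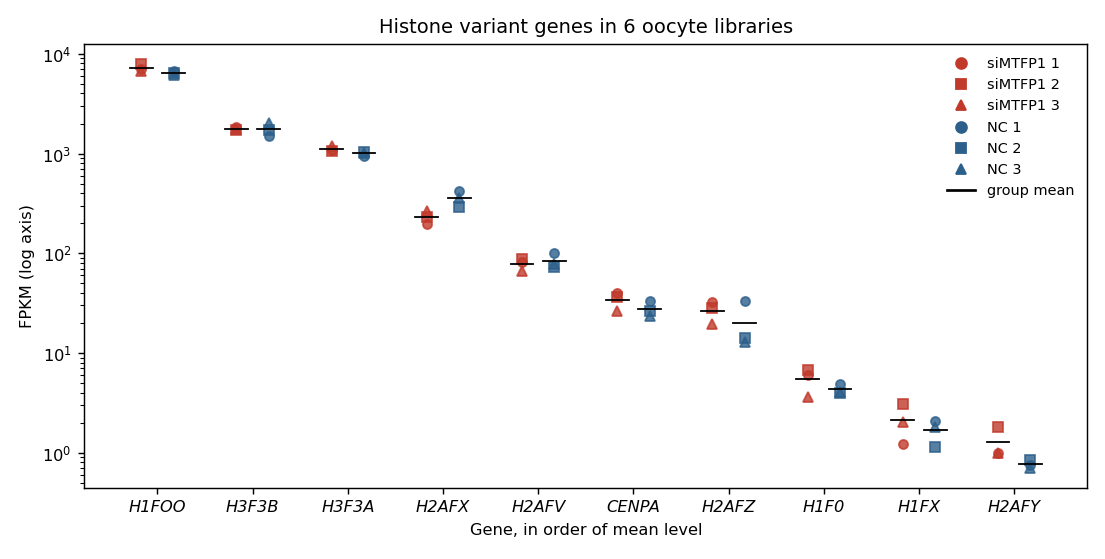
FPKM of each histone variant gene on a log axis, with the 3 libraries labelled siMTFP1 (red, left) and the 3 labelled NC (blue, right) as points and the group means as lines. H1FOO is at 6131.55 FPKM or more in every library and H2AFY at 1.83 or less, and in H2AFX the 3 libraries labelled siMTFP1 (196.74 to 263.55 FPKM) all lie below the 3 labelled NC (291.55 to 419.5 FPKM).

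Groups were compared with limma on log2(FPKM + 1) over the 9730 genes with a mean of at least 1 FPKM, and p-values were adjusted over all of these by the Benjamini-Hochberg method. Log2 differences below are siMTFP1 minus NC on that scale, which understates changes of genes near 1 FPKM. All 10 members passed the expression minimum, H2AFY only through its level in the libraries labelled siMTFP1. By limma 0 of the 10 passed an adjusted p of 0.05, as did 0 of the 9730 genes (0.0%), and 1 of the 10, H2AFX, had an unadjusted p under 0.05, against 635 genes over all (6.53%), and 2.66% of all tested genes had such a p with a lower mean, the direction of H2AFX. Of these 635 genes, 376 had a higher and 259 a lower mean, whereas the genes at that level under median-ratio scaling were 322 higher and 327 lower, and under quantile normalization 305 higher and 355 lower. The median log2 difference was 0.18 over the 10 members (0.096 over the 9 tested without siMTFP1 2), 0.23 over the cumulus and granulosa markers and 0.02 over all tested genes. A higher mean was found in 8 of the 10, against 54.2% of all genes. The number was 7 after median-ratio scaling, which turned H3F3B, 7 without siMTFP1 1 and 9 without siMTFP1 3. It was 6 of the 9 tested without siMTFP1 2 and 5 of the 7 tested with a minimum of 5 FPKM. The groups did not overlap in 3 of the 10, H2AFY and H3F3A with higher and H2AFX with lower values in the libraries labelled siMTFP1, against 11.0% of all tested genes. As H2AFY passed the minimum through the group where it was higher, its direction adds no support to this count, the 8 higher means or the median.

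**Figure D2:**
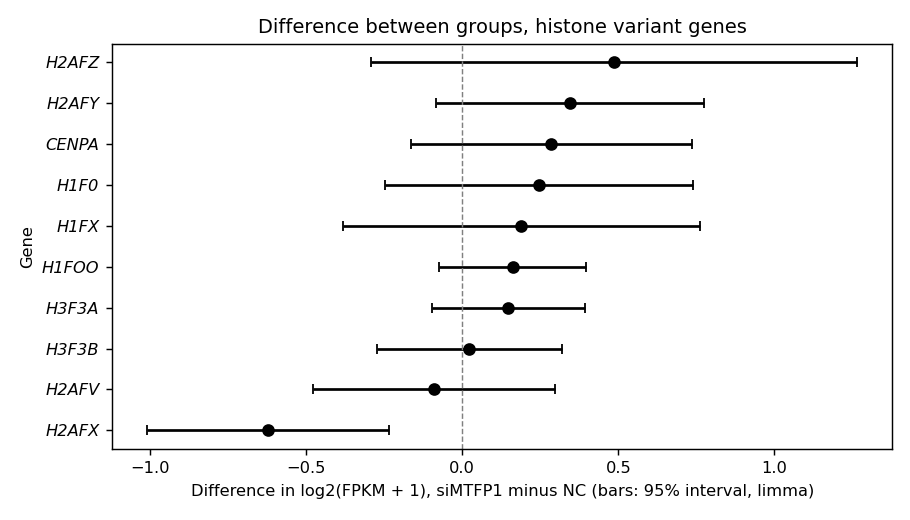
Difference in log2(FPKM + 1) between libraries labelled siMTFP1 and NC for the 10 genes, with the 95% interval of the limma fit. The interval of H2AFX runs from -1.01 to -0.23, and the other 9 intervals include 0.

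Among the linker histones, H1FOO was one of the most abundant transcripts of the egg. The somatic-type genes H1F0 and H1FX were low, at 3.6 to 6.69 and 1.15 to 3.11 FPKM. H1FOO (NCBI gene ID 527400, H1-8 in current nomenclature), the oocyte-specific linker histone, was at 7009.81, 7872.27 and 6726.68 FPKM in the libraries labelled siMTFP1, against 6797.8, 6364.18 and 6131.55 FPKM in those labelled NC. The groups overlapped, since siMTFP1 3 lay below NC 1. The log2 difference was 0.16 (SE 0.10, 95% interval -0.07 to 0.40, limma adjusted p = 0.864), and 0.096 without siMTFP1 2. H1FOO ranked between 8 and 12 of 17325 genes in each library. By mean level 8 genes stood above it, the actin monomer binding protein TMSB4X, the securin PTTG1, the cyclin-dependent kinase subunits CKS1B and CKS2, the transcriptional inhibitor ID3, the oocyte secreted protein OOSP2, the mRNA decay adaptor BTG4 and the ubiquitin gene UBB.

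H1F0, the linker histone that accumulates in cells that have stopped dividing, was at 6.03, 6.69 and 3.60 FPKM in the libraries labelled siMTFP1, against 4.85, 3.99 and 4.10 FPKM in those labelled NC. Its highest and lowest values both came from the libraries labelled siMTFP1, and the log2 difference was 0.25 (SE 0.22, limma adjusted p = 0.894), with values from 0.10 without siMTFP1 2 to 0.47 without siMTFP1 3. H1FX, a linker histone of many somatic cells, was at 1.23, 3.11 and 2.02 FPKM, against 2.10, 1.15 and 1.80 FPKM in those labelled NC. The groups overlapped, and the log2 difference was 0.19 (SE 0.25, limma adjusted p = 0.939). It lay between -0.03 without siMTFP1 2 and 0.41 without siMTFP1 1, and was 0.038 without NC 2 and 0.30 without NC 1. H1FOO made up 99.88% to 99.92% of the FPKM of these 3 genes in the libraries labelled siMTFP1 and 99.90% to 99.92% in those labelled NC (exact two-sided permutation test, p = 0.4).

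Of the other linker histones HIST1H1A was the most abundant, though below H1FOO in every library. This replication-dependent gene has uncertain values, because similar H1 copies can share reads. HIST1H1A was at 916, 1901 and 2411 FPKM in the libraries labelled siMTFP1, against 1109, 1291 and 1613 FPKM in those labelled NC, so the first group enclosed the second. Over 8 linker histone genes, H1FOO took 86.5%, 78.6% and 71.4% of the FPKM in the libraries labelled siMTFP1, against 83.4%, 81.4% and 75.7% in those labelled NC. HIST1H1A took 11.3% to 25.6% and 13.6% to 19.9%. The share of H1FOO was smallest in siMTFP1 3 and in NC 3, which had the highest HIST1H1A of their groups, and the groups overlapped. These shares were chosen after the values were seen and were not tested. They describe FPKM in these libraries and not the linker histone content of the egg. Transcripts with a stem-loop end and with a poly(A) tail may be captured unequally. Of the replication-dependent linker histones 4 of 5 matched genes were tested and 0 passed. HIST1H1D, at 2.68, 4.09 and 5.22 FPKM in the libraries labelled siMTFP1 against 7.96, 6.62 and 10.3 FPKM in those labelled NC, had the smallest p (log2 difference -0.91, SE 0.23, limma adjusted p = 0.583). Its groups did not overlap, as in 5.05% of all tested genes in this direction.

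Of the H2A variants, H2AFX was the most abundant and had the smallest p-value of the 10 genes. H2AFX (NCBI gene ID 531733) encodes H2A.X, the variant that is phosphorylated around DNA double-strand breaks, and its transcripts are known in a form with a stem-loop end and a form with a poly(A) tail. It was at 196.74, 232.8 and 263.55 FPKM in the libraries labelled siMTFP1, against 419.5, 291.55 and 360.8 FPKM in those labelled NC. Each library labelled siMTFP1 lay below each labelled NC, as in 5.05% of all tested genes in this direction. The group means were 231 ± 33.4 and 357 ± 64.0 FPKM (SD, n = 3 each), a ratio of 0.647. The log2 difference was -0.62 (SE 0.17, 95% interval -1.01 to -0.23). The unadjusted limma p was 0.00572, at rank 91 of 9730, and the Benjamini-Hochberg adjusted p was 0.607. In 14 of 14 alternative settings the limma p stayed under 0.05 before adjustment, between 0.00237 and 0.0245, and the adjusted p lay between 0.449 and 1.00. Without siMTFP1 2 the log2 difference was -0.63.

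H2AFZ and H2AFV encode 2 close forms of H2A.Z, a variant placed at promoters and other regulatory regions. H2AFZ was at 32.2, 28.3 and 19.5 FPKM in the libraries labelled siMTFP1, against 33.3, 14.2 and 12.9 FPKM in those labelled NC. NC 1 lay above every library labelled siMTFP1 and NC 2 and NC 3 below all of them, and the log2 difference was 0.49 (SE 0.34, 95% interval -0.29 to 1.26, limma adjusted p = 0.878). Without NC 1 it was 0.90, with a limma p under 0.05 before adjustment but not after it (adjusted p = 0.542), and it was 0.31 without NC 2 and 0.25 without NC 3. H2AFZ varied most of the 10 within groups, with a pooled SD of 0.57 on the log2 scale, against a median of 0.23 for the 200 genes nearest to it in level.

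H2AFV was at 81.4, 88.1 and 66.6 FPKM in the libraries labelled siMTFP1, against 100.6, 72.9 and 78.6 FPKM in those labelled NC. Its groups overlapped, and the log2 difference was -0.09 (SE 0.17, limma adjusted p = 0.959), against 0.05 without NC 1 and 0.02 without siMTFP1 3. H2AFV was above H2AFZ in each library. The log2 ratio of H2AFZ to H2AFV averaged -1.58 ± 0.22 in the libraries labelled siMTFP1 and -2.19 ± 0.53 in those labelled NC (SD, n = 3 each, exact two-sided permutation test, p = 0.3). H2AFY, which encodes macroH2A1, a variant enriched on the inactive X chromosome, was at 1.00, 1.83 and 1.00 FPKM, against 0.75, 0.85 and 0.71 FPKM in those labelled NC. The groups did not overlap (5.97% of all tested genes in this direction), and the log2 difference was 0.34 (SE 0.19, limma adjusted p = 0.824). H2AFY passed the minimum only through the libraries labelled siMTFP1, so the filter favoured this direction. Without siMTFP1 2 the mean over the libraries was 0.862 FPKM, below the expression minimum.

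As ratios within a library do not depend on how the libraries are scaled, H2AFX was also set against the H2A.Z genes. The log2 ratio of H2AFX to H2AFZ was 2.61, 3.04 and 3.76 in the libraries labelled siMTFP1, against 3.65, 4.36 and 4.81 in those labelled NC. Only siMTFP1 3 and NC 1 crossed, and the difference of -1.14 had an exact two-sided permutation p of 0.2. Against the sum of H2AFZ and H2AFV, a ratio chosen after the values were seen, the log2 values were 0.79, 1.00 and 1.61, against 1.65, 1.74 and 1.98 in those labelled NC, and the groups did not overlap. H2AFX made up 68.2% ± 6.20 of the FPKM of the 4 H2A variants in the libraries labelled siMTFP1 and 77.4% ± 2.03 in those labelled NC (SD, n = 3 each), with siMTFP1 3 at 75.2% next to NC 1 at 75.7%. This share was also chosen after the values were seen and was not tested. As H2AFX was already seen to separate the groups, neither this share nor the ratio to the sum adds support beyond the H2AFX values.

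**Figure D3:**
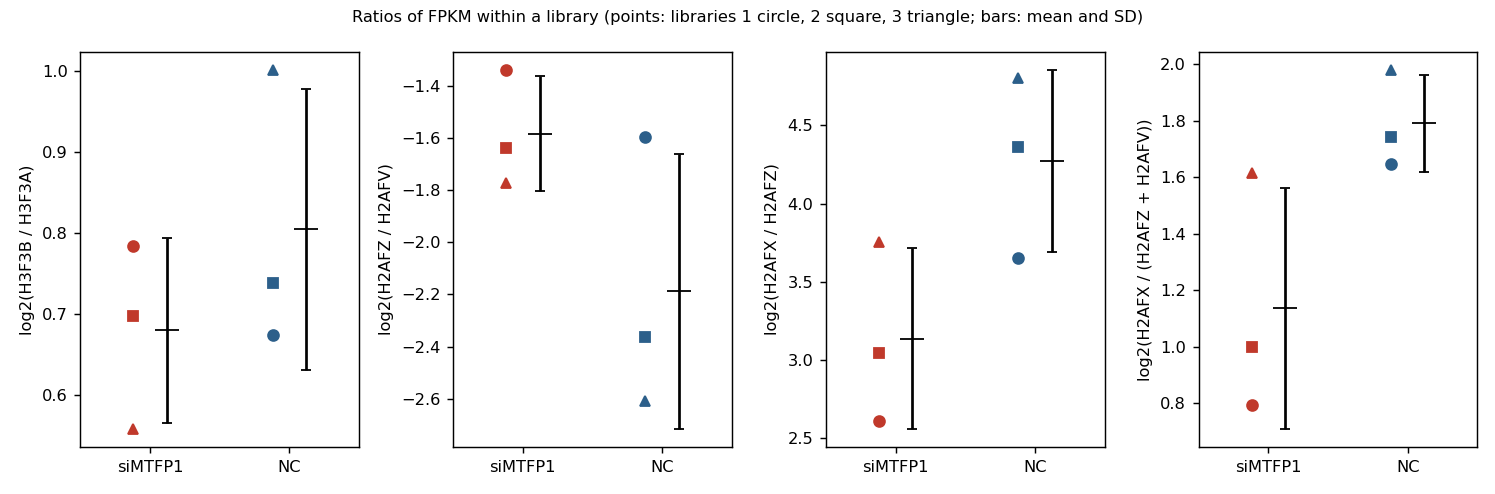
Log2 ratios of FPKM within each library, for siMTFP1 (left) and NC (right), as points with the mean and SD beside them, in 4 panels with their own axes. The groups overlap in the first 3 panels and lie apart in the last, where the highest siMTFP1 value is 1.61 and the lowest NC value 1.65.

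The H3.3 genes, with H1FOO, varied least of the set within groups. H3F3A and H3F3B encode the same H3.3 protein, which is deposited outside replication and onto the incoming sperm genome. H3F3B was at 1861, 1719 and 1752 FPKM in the libraries labelled siMTFP1, against 1510, 1733 and 2043 FPKM in those labelled NC. The libraries labelled NC enclosed the others, and the log2 difference was 0.02 (SE 0.13, 95% interval -0.27 to 0.32, limma adjusted p = 0.987). Its sign turned with median-ratio scaling and without siMTFP1 1 or NC 1.

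H3F3A was at 1082, 1060 and 1190 FPKM in the libraries labelled siMTFP1, against 947, 1039 and 1021 FPKM in those labelled NC. The groups did not overlap, but siMTFP1 2 and NC 2 lay close together, at 1060.07 and 1039.02 FPKM. The log2 difference was 0.15 (SE 0.11, 95% interval -0.10 to 0.39, limma adjusted p = 0.884), and 0.096 without siMTFP1 3. The within-group SD of H3F3A on the log2 scale was 0.08 and that of H1FOO 0.10, against medians of 0.18 and 0.17 for the 200 genes nearest in level to each. The summed FPKM of the pair averaged 2888 ± 94.2 in the libraries labelled siMTFP1 and 2764 ± 304 in those labelled NC (SD, n = 3 each). H3F3B supplied 61.6% ± 1.87 and 63.6% ± 2.76 of that sum. The log2 ratio of H3F3B to H3F3A differed by -0.12 (exact two-sided permutation test, p = 0.5). Intronless copies of these genes elsewhere in the genome could share reads, which makes both values uncertain.

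CENPA, the H3 variant that marks the centromere, was at 39.7, 36.1 and 26.4 FPKM in the libraries labelled siMTFP1, against 33.4, 26.2 and 23.5 FPKM in those labelled NC. The groups overlapped, and the log2 difference was 0.28 (SE 0.20, 95% interval -0.16 to 0.73, limma adjusted p = 0.877), with values from 0.17 without siMTFP1 1 and 0.18 without NC 3 to 0.45 without siMTFP1 3. CENPA supplied 0.891% to 1.33% of the FPKM of CENPA and the H3.3 genes in the libraries labelled siMTFP1 and 0.761% to 1.34% in those labelled NC.

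The libraries also differed within groups, and the orders given here were picked after the values were seen. In 7 of the 10 genes NC 1 was the highest library labelled NC, as in 45.3% of all tested genes. In 5 of these, H1FOO, H1F0, H2AFZ, H2AFV and CENPA, siMTFP1 3 was also the lowest library labelled siMTFP1, as in 21.8% of all tested genes. H1FOO, H1F0, H1FX, H2AFV and H2AFY were highest in siMTFP1 2 among the libraries labelled siMTFP1, as were 27.1% of all tested genes. The cumulus and granulosa marker sum was 213, 1185 and 216 FPKM in siMTFP1 1 to 3, against 384, 178 and 311 FPKM in NC 1 to 3, so it too was highest in siMTFP1 2 and NC 1 of their groups. Its part in these values was not tested. In bulk samples, fewer cells of a type and less RNA per cell cannot be told apart.

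**Figure D4:**
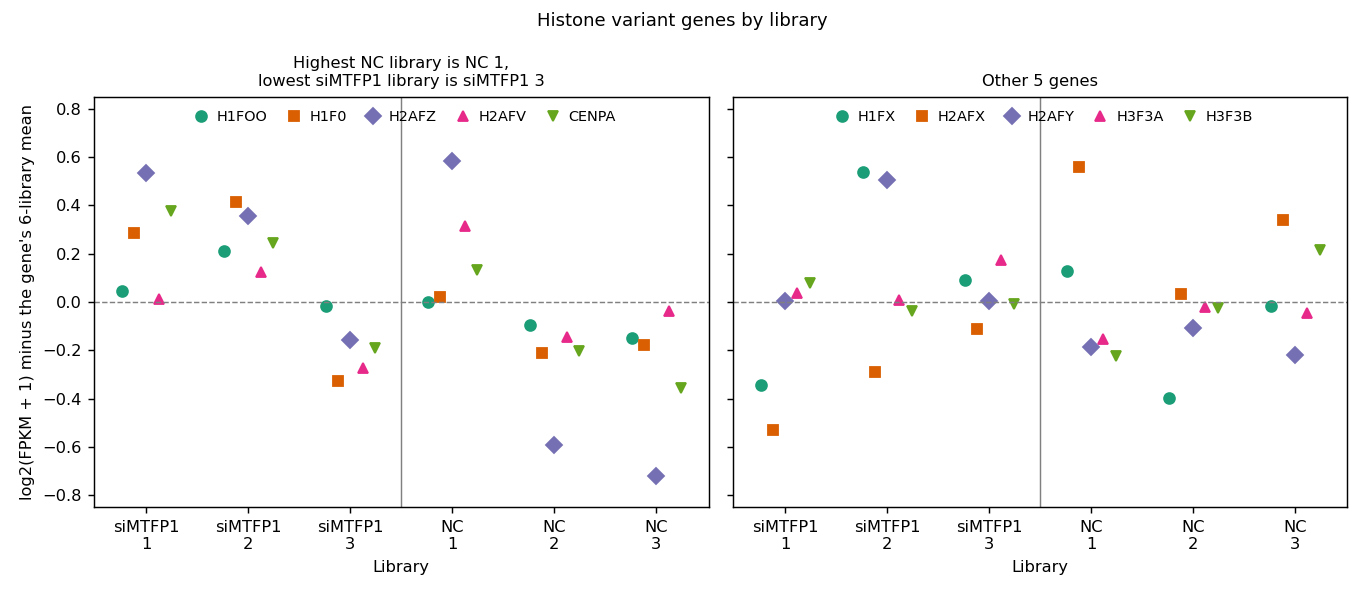
Log2(FPKM + 1) of each gene in each library minus that gene's mean over the 6 libraries, with libraries labelled siMTFP1 left of those labelled NC. The left panel holds the 5 genes that were highest in NC 1 and lowest in siMTFP1 3 within their groups, and the right panel the other 5, among them H2AFX, which lies below its mean in the 3 libraries labelled siMTFP1 and above it in the 3 labelled NC.

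Over the 6 libraries, the tested genes whose log2 levels followed H1FOO most closely were the zinc finger protein gene ZPR1 (Pearson r = 0.997), the GTPase gene ARF3 (0.996) and RIN2 (0.993), each highest in siMTFP1 2 and lowest in NC 3 as H1FOO was. This describes the closest 3 of 9729 genes over 6 points.

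Genes that store, deposit or modify histones showed 0 members past the adjusted threshold in any list by limma, with list medians between -0.06 and 0.16, against 0.02 for all tested genes. Of all tested genes, 54.2% had a higher mean and 6.53% had an unadjusted limma p under 0.05 in either direction. In 11.0% the groups did not overlap, in either direction. Genes were named from each list by the smallest p, a choice that favours groups without overlap. The counts below stand beside these shares. Histone chaperones, which carry histones to DNA, had 17 higher and 9 lower means among 26 tested of 28 (median log2 difference 0.06), with 1 in each direction at an unadjusted limma p under 0.05. These were TNPO1, an importin that carries histones among other cargo, at 19.2, 19.9 and 22.4 FPKM in the libraries labelled siMTFP1 against 30.0, 23.8 and 37.6 FPKM in those labelled NC, and CABIN1, a subunit of the HIRA complex that deposits H3.3, at 1.39, 1.64 and 2.13 FPKM against 0.92, 1.32 and 0.90 FPKM in NC. Their groups did not overlap (limma adjusted p = 0.739 and 0.764). CHAF1B, of the replication-coupled chaperone CAF-1, averaged 1.65 ± 0.332 FPKM in the libraries labelled siMTFP1 and 0.933 ± 0.485 FPKM in those labelled NC. Its groups overlapped. CHAF1B passed the expression minimum only through the libraries labelled siMTFP1, so its direction adds no support to the 17 higher means. NPM3, of the nucleoplasmin family of histone chaperones, averaged 44.7 ± 2.63 and 37.0 ± 4.80 FPKM, with overlap.

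The complexes that exchange H2A.Z into nucleosomes had 11 higher and 5 lower means among 16 tested of 18 matched, with a median log2 difference of 0.16, and 0 had an unadjusted limma p under 0.05. The actin-related subunit ACTR6 averaged 20.8 ± 0.308 FPKM in the libraries labelled siMTFP1 and 27.0 ± 4.62 FPKM in those labelled NC (SD, n = 3 each), without overlap. The acetyltransferase KAT5 averaged 4.50 ± 0.794 and 3.34 ± 0.367 FPKM, with overlap. The centromere proteins that assemble on CENP-A nucleosomes had 3 higher and 13 lower means among 16, with a median log2 difference of -0.06. Several of the 13 lay close to 0, among them CENPN and CENPU, with log2 differences of -0.010 and -0.013. Of the 16 CENPO had the smallest p, at 58.2, 68.4 and 62.9 FPKM in the libraries labelled siMTFP1 against 87.1, 83.2 and 88.2 FPKM in those labelled NC. Its groups did not overlap, and the log2 difference was -0.44 (SE 0.13, limma adjusted p = 0.638).

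Kinases of histone tails and proteins of H2A.X damage signalling had 7 higher and 12 lower means among 19 tested of 21 (median log2 difference -0.03), and 0 had an unadjusted limma p under 0.05. ATM, which phosphorylates H2A.X at breaks, was at 3.40, 3.18 and 2.96 FPKM in the libraries labelled siMTFP1 against 4.35, 3.54 and 4.38 FPKM in those labelled NC, and the groups did not overlap (log2 difference -0.28, limma adjusted p = 0.828). VRK1, a kinase of histone H3, averaged 374 ± 53.4 and 455 ± 66.3 FPKM, with overlap. Factors that process the ends of replication-dependent histone mRNAs had 4 higher and 5 lower means among 9 tested of 11 (median log2 difference -0.01), 0 of them with an unadjusted limma p under 0.05. The oocyte stem-loop binding protein SLBP2 averaged 593 ± 81.2 FPKM in the libraries labelled siMTFP1 and 668 ± 54.3 FPKM in those labelled NC, with overlap.

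**Figure D5:**
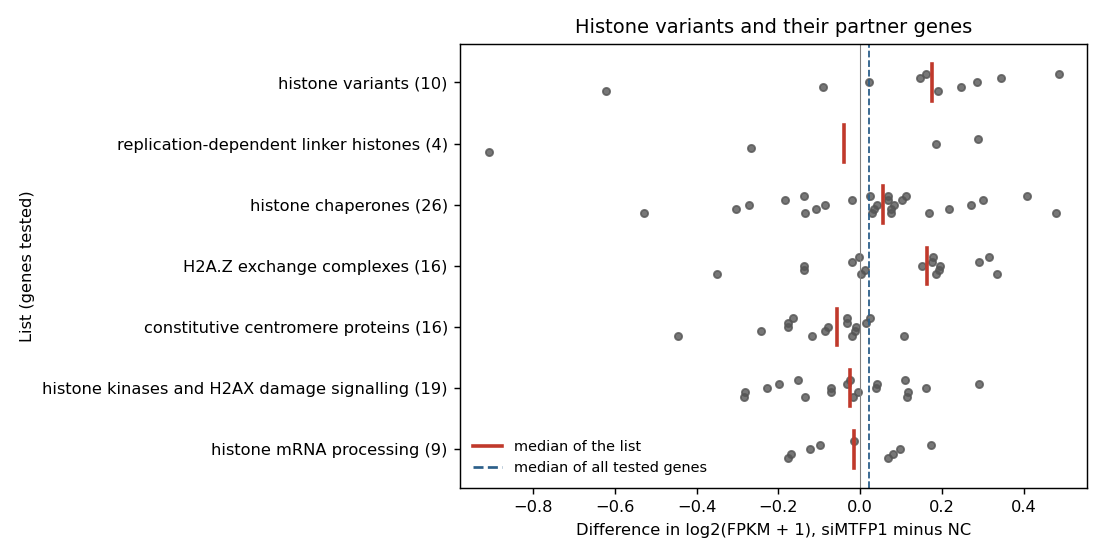
Difference in log2(FPKM + 1), siMTFP1 minus NC, of each tested gene in 7 lists, with list medians in red and the median of all tested genes (0.02) dashed. The histone variants have a median of 0.18, H2AFX lies at -0.62, and 13 of the 16 centromere proteins lie below 0, several of them close to it. Of all tested genes, 54.2% lie above 0.

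Other variant histone genes were low or at 0, and H2AFJ alone of those matched passed the expression minimum. Of 12 listed, 4 matched a gene in the files and 1 was tested. H2AFJ was at 2.53, 2.82 and 0.79 FPKM in the libraries labelled siMTFP1, against 1.18, 0.29 and 1.43 FPKM in those labelled NC. The groups overlapped. With a mean of 0.967 FPKM in the libraries labelled NC, H2AFJ passed the minimum only through those labelled siMTFP1. H2AFY2, the second macroH2A gene, was at 0.13, 0.89 and 0.00 FPKM, against 0.00, 0.00 and 0.03 FPKM in those labelled NC. H3F3C and the testis linker histone H1FNT did not exceed 0.25 FPKM in any library.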

How the data were processed

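FPKM of 17325 genes, rounded to 2 decimals, is what the authors deposited per library, 6 messenger RNA libraries in all. Tools listed in the submitters' processing notes, without role or order, are RSEM 1.3.1, HISAT2 2.2.1, DESeq2 1.4.5 and Bowtie2 2.3.4.3, with the build ARS-UCD1.2. The sources used here give neither the use of strand nor the division of reads among similar copies. Depth is unknown, so no counting interval is given.

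Samples were grouped by title. Log2(FPKM + 1) of genes with a mean of at least 1 FPKM was compared between groups by limma's two-sided moderated test (limma 3.58.1, R 4.3.3; trended eBayes, no covariate). Benjamini-Hochberg adjustment was over all genes tested, at 0.05. A set of 4 within-library ratios was compared by exact two-sided permutation tests (smallest p 0.1; adjusted over the 4, each was 0.5). The limma step was checked on simulated data. Current gene names come from RefSeq (ARS-UCD2.0), which matched HIRA by gene ID. Builds differ, so no coordinates are printed.

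The members and lists were chosen with earlier results of these data known. Named were the 10 members, MTFP1, up to 4 genes per list with the smallest p, defining markers, genes above H1FOO and the 3 most like it. Alternatives were pseudocounts 0.1 and 5, no filter or a minimum of 5, rescaling to equal sums, median-ratio and quantile scaling, the replicate number as a block, and leaving out each library. Python 3.11.15, pandas 2.3.3 and matplotlib 3.10.9 were used for tables and figures.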

Additional observations from a re-analysis of the deposited data

How the results depend on the processing

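Of 136 values of the 10 members under 14 alternatives, 130 kept their direction, 0 passed the adjusted threshold and 6 turned: H3F3B to -0.014 with median-ratio scaling, -0.011 without siMTFP1 1 and -0.083 without NC 1 (range with a library left out -0.083 to 0.14), H2AFV to 0.045 without NC 1 and 0.024 without siMTFP1 3 (-0.18 to 0.045), and H1FX to -0.032 without siMTFP1 2 (-0.032 to 0.41). H1F0, H1FX and H2AFY gave no value with a minimum of 5 FPKM, nor H2AFY without siMTFP1 2. By limma, genes past the adjusted threshold numbered 2 with a minimum of 5 FPKM, 2 with equal sums and 0 to 2 with a library left out. Genes with an unadjusted p under 0.05 numbered 1037 with no filter (17325 tested), 358 with a minimum of 5 FPKM (6073 tested) and 335 to 763 with a library left out, 335 without siMTFP1 2. The members at that level numbered 2 with quantile normalization (H2AFX and H1FOO) and 1 to 3 with a library left out, 3 without siMTFP1 3 (H2AFX, H1F0 and CENPA) and 2 without NC 1 (H2AFX and H2AFZ). The cause was not tested. Deviations from the group means had correlations of 0.03, -0.16 and 0.07 between same-numbered libraries. Between libraries with different numbers they ran from -0.26 to 0.23. With 3 libraries per group, these values cannot exclude a shared culture or batch. With the replicate block 630 genes had an unadjusted p under 0.05 and 0 passed after adjustment, and the limma adjusted p of H2AFX was 0.678. The ratios kept their direction under every alternative run. The ratio of H2AFX to the sum of H2AFZ and H2AFV, chosen after seeing the data, differed by -0.65 (exact two-sided permutation p = 0.1, the smallest possible). As H2AFX was already seen to separate the groups, this p gives no support beyond the H2AFX values.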

Other observations

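By level rather than difference, some histone partner genes stood near the variants themselves in FPKM. The genes named here were chosen after their values were seen, from the most abundant of their lists, with EP400 and MDC1 as the least abundant of theirs. Among histone chaperones, NPM1 averaged 1292 ± 157 FPKM in the libraries labelled siMTFP1 and 1369 ± 147 FPKM in those labelled NC (SD, n = 3 each), a value that copies of the gene can make uncertain. ASF1B, which hands H3 and H4 to other chaperones, averaged 1335 ± 92.0 and 1272 ± 34.1 FPKM, close to H3F3A, and its paralogue ASF1A averaged 254 ± 18.4 and 273 ± 19.7 FPKM. VPS72, the subunit that binds H2A.Z in its exchange complexes, averaged 298 ± 12.4 and 299 ± 25.1 FPKM, while the ATPase EP400 was at 0.753 ± 0.196 and 0.917 ± 0.145 FPKM.

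Of the centromere proteins CENPU was the most abundant, at 585 ± 18.4 FPKM in the libraries labelled siMTFP1 and 590.1 ± 7.25 FPKM in those labelled NC, above CENPA itself. The kinase gene AURKA averaged 3369 ± 198 and 3539 ± 133 FPKM and the meiotic AURKC 540.0 ± 61.7 and 499 ± 49.6 FPKM. The damage mediator MDC1, which binds phosphorylated H2A.X, was at 0.390 ± 0.0100 and 0.297 ± 0.254 FPKM. The stem-loop binding protein SLBP2 exceeded SLBP, which averaged 78.3 ± 14.0 and 73.2 ± 14.2 FPKM. The groups overlapped in each of these partner genes.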
